A study of Mus musculus with 17 samples.

Results

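The genes described here are 40 genes of sugar metabolism, chosen by symbol because their products carry out glycolysis, gluconeogenesis, lactate and pyruvate handling, fructose and polyol metabolism, the pentose phosphate route or the entry into hexosamine synthesis, with the glucose-responsive arrestin Txnip. Glucose transporters were not among them. All 40 were found among the 22558 genes of the table, and 38 passed the filter on low counts in each comparison. Hk2 and Hk3, hexokinases of muscle, fat and blood cells, did not pass it, at 0.00935 to 0.536 and 0 to 0.713 FPKM over the 17 mice (FPKM is the count scaled by transcript length and library total).

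RNA was sequenced from whole kidneys of male mice, 1 library a mouse, to find genes that respond to diabetes and to dapagliflozin, an inhibitor of the sodium-glucose cotransporter of the proximal tubule. Ctrl were 5 C57BL/6 mice given saline. Case were 6 mice of BKS.Cg-Dock7m +/+ Leprdb/J (db/db) given saline, and Dapa were 6 such mice given dapagliflozin at 1.0 mg/kg/day by gavage. Dosing began at 8 weeks of age and lasted 6 weeks. db/db mice lack the long form of the leptin receptor and become obese and hyperglycemic. Their strain differed from that of the Ctrl mice, so that diabetes and strain cannot be told apart in any comparison with Ctrl, and both such comparisons share the same 5 Ctrl mice. The leptin receptor mutation changes splicing, and gene-level counts do not check it.

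The kidney both burns and makes glucose. The proximal tubule carries little hexokinase and pyruvate kinase, makes glucose from lactate, glutamine and other precursors, and takes up fructose, while the loop of Henle, the distal nephron and the collecting duct run on glycolysis and, in the medulla, store sorbitol made by aldose reductase. In diabetes, renal gluconeogenesis, the polyol pathway and the glucose-induced arrestin Txnip are widely discussed as routes of glucose excess.

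Library totals lay between 13039535 and 17779635 counts. Mitochondrial genes took 17.9% to 20.4% of counts in Ctrl, 19.8% to 27.3% in Case and 19.7% to 27.6% in Dapa, and 5 of 6 Case and 4 of 6 Dapa mice lay above the highest Ctrl mouse. In bulk tissue, fewer cells of a type and less RNA per cell cannot be told apart, and summed markers of several cell types moved with the groups. Of all genes tested, 6.91% were lower and 6.09% higher in Case than in Ctrl at an adjusted p under 0.05. In Dapa against Ctrl these shares were 14.9% and 14.2%. Of 12 proximal tubule markers, 7 were lower in Case than in Ctrl and 10 lower in Dapa than in Ctrl, none higher, and their summed level was 11140 to 18847 FPKM in Ctrl, 2692 to 5820 in Case and 3003 to 7699 in Dapa. Without Kap, an androgen-regulated proximal tubule gene, the sum was 3438 to 4233, 1958 to 3283 and 2096 to 3159 FPKM. Of 12 markers of the loop, distal nephron and collecting duct, 5 were higher in Case and 7 in Dapa than in Ctrl, none lower, with sums of 731 to 1840 FPKM in Ctrl, 1293 to 3127 in Case and 1673 to 2524 in Dapa. All 5 erythrocyte markers were higher in both db/db groups than in Ctrl, with sums of 18.2 to 69.6 FPKM in Ctrl, 56.7 to 436 in Case and 109.9 to 358 in Dapa. Of the remaining lists, 2 of 5 podocyte and 1 of 10 macrophage and myeloid markers were higher in Case than in Ctrl, and the same held for 2 of 5 and 1 of 9 tested in Dapa. Of 6 fibroblast markers, Pdgfra and Dcn were higher in Dapa than in Ctrl and none passed in Case. None of the 4 endothelial and 4 liver markers passed against Ctrl. Most markers of T and NK cells, neutrophils and skeletal muscle and all 5 of adipocytes were under the filter on low counts, and the few tested did not pass. Adipocyte markers summed to 67.1 FPKM in 1 Ctrl mouse and to at most 9.88 in any db/db mouse, and skeletal muscle markers to at most 0.981 in any mouse. The part of these shifts in the results below was not tested.

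Among the members, promoter sequence bore most directly on the glucose-responsive arrestin. ChREBP and MondoA, transcription factors that respond to glucose metabolites, bind a carbohydrate response element made of a pair of E-box-like sequences. Sequences from RefSeq, build GRCm38.p6, were found for 39 of the 40 members by symbol, and each motif was searched on both strands from 250 bases before to 50 bases after a transcription start. The E-box-like sequence CACGAG occurred in 6.47% of 32851 promoters and in those of 6 members. At least 2 of them occurred in 0.359% of promoters and, of the members, in that of Txnip alone. Below, the 250 bases before the start are shown in transcription direction for Txnip, for its close relative Arrdc4 and for Pck1, the gene of the gluconeogenic enzyme with the highest level. Capitals mark 2 copies of CACGAG in Txnip (chr3:96557707-96557956, plus strand), which begin at positions -85 and -74, the E-box CACGTG in Arrdc4 (chr7:68749239-68749488, minus strand), which begins at -193, and the cAMP response element form TTACGTCA in Pck1 (chr2:173152823-173153072, plus strand), which begins at -93.
Txnip: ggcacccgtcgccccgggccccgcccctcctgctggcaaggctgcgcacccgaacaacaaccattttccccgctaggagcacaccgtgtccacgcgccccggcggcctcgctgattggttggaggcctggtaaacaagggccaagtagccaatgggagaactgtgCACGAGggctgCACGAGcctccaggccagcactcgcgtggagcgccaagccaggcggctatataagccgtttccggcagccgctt
Arrdc4: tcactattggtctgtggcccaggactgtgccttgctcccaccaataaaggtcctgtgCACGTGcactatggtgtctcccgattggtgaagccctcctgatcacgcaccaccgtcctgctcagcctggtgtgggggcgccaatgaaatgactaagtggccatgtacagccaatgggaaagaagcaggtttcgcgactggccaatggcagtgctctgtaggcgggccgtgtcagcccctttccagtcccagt
Pck1: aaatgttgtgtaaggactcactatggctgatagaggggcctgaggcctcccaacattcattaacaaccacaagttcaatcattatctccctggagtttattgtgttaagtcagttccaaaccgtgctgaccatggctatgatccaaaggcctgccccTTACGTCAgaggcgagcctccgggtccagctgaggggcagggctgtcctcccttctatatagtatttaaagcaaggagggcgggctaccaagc
CACGTG was found in 7.15% of all promoters, and TTACGTCA or the longer known form TGACGTCA in 2.28%. These matches describe letters in the window and not bound sites.

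In FPKM, which allows levels of different genes to be compared per length, the members ran from traces to some of the most abundant transcripts of the kidney. Pck1, Sord, Ldhb, Fbp1 and G6pc had the highest Ctrl means, at 991 ± 112, 847 ± 55.1, 456 ± 30.3, 457 ± 42.6 and 306 ± 64.8 FPKM (mean ± SD, n = 5). Pkm and Hk1, at the exit and the entry of glycolysis, had 54.0 ± 12.7 and 5.87 ± 2.43. Pck1, Fbp1 and G6pc thus stood well above Hk1, while Pck2 and G6pc3, with Ctrl means of 4.06 and 5.77 FPKM, did not.

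Of the 38 members tested, 6 passed an adjusted p of 0.05 in edgeR's quasi-likelihood test between Case and Ctrl, 3 higher (Hk1, Pkm and Txnip) and 3 lower (Ldha, Ldhd and Taldo1). That is 15.8% of the members, beside 13.0% of all 14582 genes tested (6.09% higher and 6.91% lower). Between Dapa and Ctrl 14 passed, or 36.8% beside 29.1% of 14647 genes (14.2% higher and 14.9% lower), with 7 higher (Hk1, Pfkp, Aldoc, Eno1, Pkm, Tkt and Txnip) and 7 lower (Pgam1, Ldha, Ldhd, Pcx, Sord, Taldo1 and Gfpt1). No member passed between Dapa and Case, where none of 14573 genes did in this test (0.00%), 12.9% had an unadjusted p under 0.05, and DESeq2 called 202 genes, edgeR's exact test 129 and the fit of all groups together 5, none of them a member. The share of members called was thus close to that of all genes, and the median log2 fold change of the members was 0.04 in Case and 0.06 in Dapa relative to Ctrl, beside 0.03 and 0.02 over all genes. With the study's added condition of a group mean fold above 2, Hk1 and Ldhd remained between Case and Ctrl (3.79% of all genes) and Hk1, Aldoc, Pkm and Ldhd between Dapa and Ctrl (7.18%). When single mice were left out, the count between Case and Ctrl ran from 2 to 8. It was 3 without Case mouse 1 and without Ctrl mouse 2 or 5, and 2 without Case mouse 2 and without Ctrl mouse 1 or 3. Pkm and Ldhd passed in each of these fits. The count between Dapa and Ctrl ran from 9 to 17, with 9 without Ctrl mouse 1 or 5. The balance of directions moved with the setting. With limma on log2(FPKM + 1), which differs in tool and transformation and carries no TMM factor, 59.1% of all calls between Case and Ctrl were higher beside 46.9%, and the members called split into 4 higher and 2 lower. Between Dapa and Ctrl the shares were 66.2% beside 48.7%, and the members split into 9 higher and 4 lower.

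**Figure D1:**
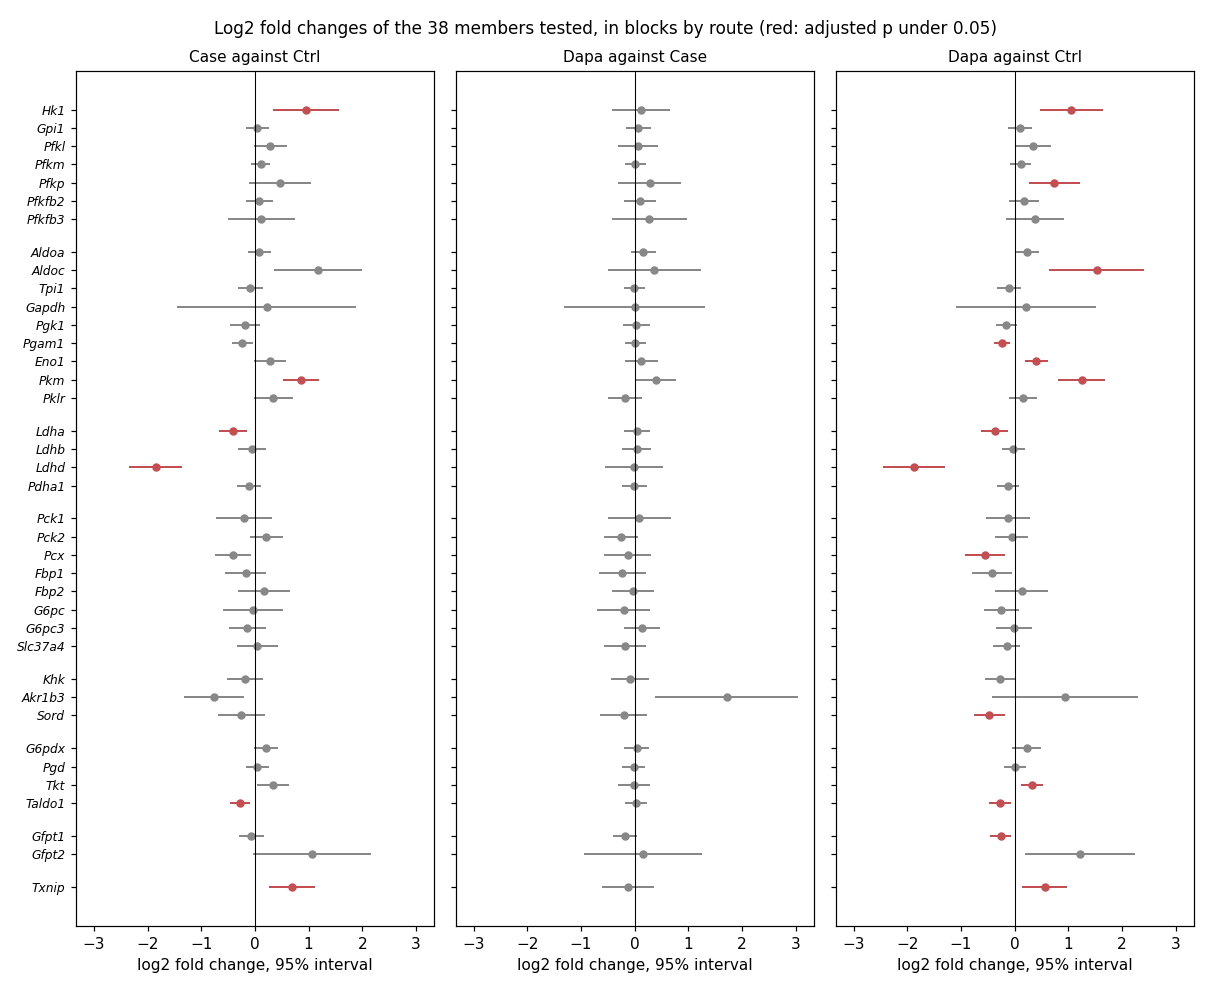
Log2 fold changes (x axis) of the 38 members tested with 95% intervals, in blocks by route from the first steps of glycolysis at the top to Txnip at the bottom, for each of 3 comparisons; red marks an adjusted p under 0.05. Red points lie on both sides of 0 in the 2 panels against Ctrl, 6 in the left and 14 in the right panel, and the middle panel, Dapa against Case, has none.

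Of the 4 genes of lactate and pyruvate handling, 2 passed in each comparison with Ctrl, both lower, beside 6.91% of all genes lower in Case and 14.9% in Dapa. The most changed member of all was Ldhd (ENSMUSG00000031958, chr8:111623785-111630374 in mm10), which encodes the mitochondrial dehydrogenase that oxidizes D-lactate to pyruvate. It read 153, 108, 153, 78.5 and 139.6 FPKM in Ctrl mice 1 to 5, 26.6 to 54.9 (median 34.4) in the 6 Case mice and 24.8 to 61.8 (median 31.8) in the 6 Dapa mice. Every db/db mouse, treated or not, lay under the lowest Ctrl mouse. The log2 fold change was -1.85 (95% interval -2.33 to -1.38, adjusted p = 0.000448) in Case and -1.87 (95% interval -2.44 to -1.31, adjusted p = 0.000553) in Dapa against Ctrl, and both calls held without any one mouse. Groups of FPKM that do not overlap were found for 8.43% of all genes between Case and Ctrl, and for 4 of the 38 members (Ldhd, Pkm, Tkt and Taldo1), and between Dapa and Ctrl for 14.5% and 6 (Ldhd, Pkm, Tkt, Eno1, Pgam1 and Sord). Of its exon bases, 42.2% lie opposite exons of Znrf1, a gene with 2752 counts over all mice beside 151883 for Ldhd.

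Ldha, the muscle-type lactate dehydrogenase subunit that favours lactate formation, was also lower. It read 107, 111, 99.9, 87.1 and 93.3 FPKM in Ctrl mice 1 to 5, 68.6 to 98.3 (median 77.1) in the 6 Case mice and 73.7 to 100.1 (median 78.4) in the 6 Dapa mice. Case mouse 5 and Dapa mice 7 and 8 lay within the Ctrl range and the other db/db mice under it. Its log2 fold change was -0.41 (95% interval -0.66 to -0.17, adjusted p = 0.0309) in Case and -0.37 (95% interval -0.60 to -0.15, adjusted p = 0.0187) in Dapa against Ctrl. The first call was lost without Case mouse 2, 4 or 6 or Ctrl mouse 1, 2 or 3 (adjusted p = 0.0503 to 0.0833) and with a term for 7 libraries that may be a batch (0.0585) or a replicate block (0.135), and the second without Ctrl mouse 1 or 2 (0.0580 to 0.0594). Ldhb, the heart-type subunit, lay at 375 to 522 FPKM in all mice, and Pdha1, a subunit of pyruvate dehydrogenase, at 132 to 172. Neither passed in any comparison (adjusted p = 0.800 and 0.464 between Case and Ctrl). The decrease thus concerned the D-lactate enzyme and the less abundant of both L-lactate subunits.

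At the first steps of glycolysis, Hk1, the hexokinase of most glycolytic cells, was higher in both db/db groups. It read 3.20, 6.14, 5.01, 9.78 and 5.21 FPKM in Ctrl mice 1 to 5, 7.55 to 20.8 (median 10.9) in the 6 Case mice and 7.64 to 21.0 (median 11.6) in the 6 Dapa mice. All 12 db/db mice exceeded 4 of the 5 Ctrl mice, but Ctrl mouse 4 (9.78) lay above Case mice 4, 5 and 6 and Dapa mouse 9. On the log2 scale the difference was 0.95 (95% interval 0.35 to 1.54, adjusted p = 0.0398) in Case and 1.06 (95% interval 0.49 to 1.63, adjusted p = 0.0110) in Dapa. The Case call was lost without Case mouse 1, 2 or 3 or Ctrl mouse 1, 2, 3 or 5 (adjusted p = 0.0645 to 0.0959) and with the term for 7 libraries (0.0709) or the replicate block (0.0857), while the Dapa call held without any one mouse.

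Phosphofructokinase, the committed step, has 3 subunit genes. Pfkp, the platelet type, read 2.07, 2.39, 3.10, 3.81 and 2.41 FPKM in Ctrl mice 1 to 5, 2.56 to 7.96 (median 3.54) in the 6 Case mice and 3.40 to 7.97 (median 4.55) in the 6 Dapa mice. Case mouse 3 and Dapa mouse 12 were the highest of their groups, and Dapa mice 7 and 9 lay within the Ctrl range. Pfkp rose in Dapa against Ctrl by 0.74 (95% interval 0.28 to 1.20, adjusted p = 0.0206) on the log2 scale, a call lost without Ctrl mouse 5 (0.0519), and did not pass in Case (adjusted p = 0.251). Pfkm, the muscle type and the most abundant, lay at 15.9 to 21.8 FPKM, and Pfkl, the liver type, at 8.71 to 18.8, and neither passed. Gpi1, which interconverts glucose and fructose phosphates, lay at 29.8 to 41.1, and Pfkfb2 and Pfkfb3, which make the phosphofructokinase activator fructose bisphosphate, at 1.33 to 2.45 and 0.381 to 2.18, also without a call. All 7 tested genes of these steps had a log2 fold change above 0 in Case (median 0.11) and in Dapa (median 0.35) relative to Ctrl, of which 1 and 2 passed. Over all genes, 7912 of 14582 and 7527 of 14647 had a value above 0, and 13.0% and 29.1% passed.

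In lower glycolysis 1 of 9 genes passed in Case and 4 in Dapa against Ctrl, or 11.1% and 44.4% beside 13.0% and 29.1% of all genes. Pkm (ENSMUSG00000032294, chr9:59656368-59679375), the muscle-type pyruvate kinase that includes the M2 isoform, rose in both db/db groups. It read 40.004, 56.7, 50.8, 74.0 and 48.5 FPKM in Ctrl mice 1 to 5, 84.1 to 131 (median 101) in the 6 Case mice and 92.0 to 195 (median 128) in the 6 Dapa mice. Every db/db mouse lay above the highest Ctrl mouse, number 4. Fitted log2 fold changes were 0.86 (95% interval 0.55 to 1.17, adjusted p = 0.00304) in Case and 1.25 (95% interval 0.83 to 1.67, adjusted p = 0.000888) in Dapa, and both calls held without any one mouse. Of its 50-base stretches 25.8% also occur in other annotated genes, none of them in the table. Pklr, the pyruvate kinase of liver and red cells that the proximal tubule also uses, lay at 6.63 to 15.5 FPKM and did not pass (adjusted p = 0.180 between Case and Ctrl). The gene-level table does not separate the M1 and M2 forms of Pkm.

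Aldoc, the brain-type aldolase, was low in level and had the highest fold change of the members in both comparisons with Ctrl. It read 0.611, 0.857, 1.01, 2.08 and 1.13 FPKM in Ctrl mice 1 to 5, 1.05 to 4.70 (median 2.58) in the 6 Case mice and 1.41 to 6.82 (median 2.76) in the 6 Dapa mice. Case mice 4 and 5 and Dapa mouse 9 lay within the Ctrl range. The log2 fold change in Dapa against Ctrl was 1.53 (95% interval 0.67 to 2.39, adjusted p = 0.0133). In Case against Ctrl it was 1.17 (95% interval 0.38 to 1.97, adjusted p = 0.0528), which missed the threshold, and it passed without Case mouse 4 or 5 or Ctrl mouse 4 (0.0192 to 0.0445) and in DESeq2 (0.00986), edgeR's exact test (0.0176) and upper quartile scaling (0.0492). Aldoa, the ubiquitous aldolase, lay at 61.9 to 102 FPKM and did not pass.

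Eno1, the ubiquitous enolase, read 24.0, 22.8, 24.9, 23.6 and 22.5 FPKM in Ctrl mice 1 to 5, 22.6 to 36.4 (median 30.8) in the 6 Case mice and 27.0 to 38.7 (median 34.1) in the 6 Dapa mice. In FPKM the Dapa mice all lay above the Ctrl mice, as did the Case mice except number 3 (22.6). Dapa mouse 7 (27.0, TMM factor 1.0318) may not stay above Ctrl mouse 3 (24.9, factor 0.9367) under the scaling of the tests. Eno1 rose in Dapa by 0.40 (95% interval 0.21 to 0.60, adjusted p = 0.00600) on the log2 scale and did not pass in Case (adjusted p = 0.178). Of its 50-base stretches 26.0% are shared with other genes, chiefly Eno1b, which holds 17630 counts beside 60926 for Eno1, so that its level is uncertain by the authors' handling of shared reads.

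Pgam1, phosphoglycerate mutase, was lower in Dapa than in Ctrl. It read 127, 126, 130.3, 133 and 127 FPKM in Ctrl mice 1 to 5, 106 to 127 (median 114) in the 6 Case mice and 108 to 125 (median 119) in the 6 Dapa mice. All Dapa mice lay under the Ctrl mice, by a narrow margin, and Case mouse 4 lay within their range. Its log2 fold change was -0.23 (95% interval -0.36 to -0.10, adjusted p = 0.0153) in Dapa and -0.24 (95% interval -0.41 to -0.06, adjusted p = 0.0759) in Case, where it passed in DESeq2 (0.0209) and with all groups in one fit (0.0273). It shares 36.2% of its stretches, chiefly with Pgam1-ps2 (6093 counts beside 58227), and the Dapa call was lost in limma on log2(FPKM + 1) (0.123) and on log2(FPKM + 0.1).

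Tpi1 and Pgk1 lay at 132 to 172 and 122 to 170.0 FPKM in all mice and did not pass in any comparison. Pgk1 shares 53.9% of its stretches with other genes. Gapdh, commonly used as a reference gene, read 2.33, 12.4, 2.24, 19.7 and 2.41 FPKM in Ctrl mice 1 to 5. Case mice 1 to 6 read 2.07, 2.28, 2.42, 14.1, 13.1 and 21.4, and Dapa mice 7 to 12 11.4, 15.2, 3.13, 11.0, 13.3 and 3.84. Each group thus held mice under 4 FPKM and mice above 10, with nothing between, and all of them were far under the neighbouring enzymes Tpi1 and Pgk1. Of its 50-base stretches 24.7% are shared, with 218 other annotated genes, so that reads of Gapdh may have been split and its level is not read here. The genes that share at least 100 stretches held 1126 counts beside 20813 for Gapdh. The cause of the 2 bands within each group was not tested.

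**Figure D2:**
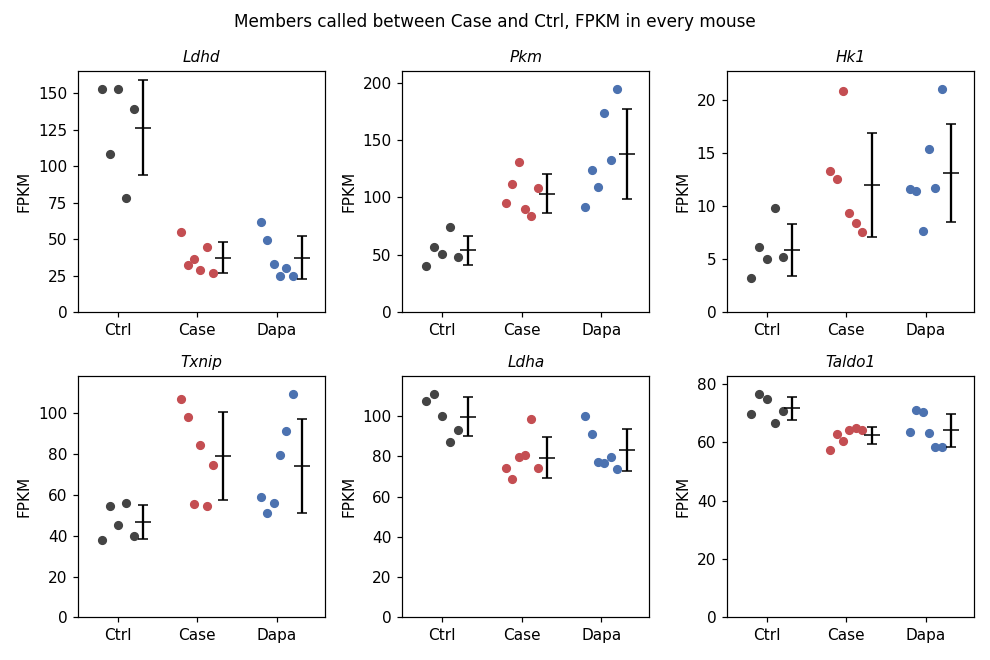
FPKM (y axis, from 0) of the 6 members that passed between Case and Ctrl, 1 point a mouse, with the mean ± SD beside each group (5 Ctrl, 6 Case, 6 Dapa). Ldhd lies lower and Pkm higher in every db/db mouse than in any Ctrl mouse, while Hk1, Txnip and Ldha overlap between the groups.

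Txnip (chr3:96557957-96561883), an arrestin that promotes the removal of glucose transporters from the cell surface and binds thioredoxin, was higher in both db/db groups. It read 38.1, 54.6, 45.5, 56.0 and 40.1 FPKM in Ctrl mice 1 to 5, 54.9 to 107 (median 79.7) in the 6 Case mice and 51.1 to 109.6 (median 69.3) in the 6 Dapa mice. Ctrl mouse 4 was the highest Ctrl mouse (56.0), and Case mice 3 and 5 and Dapa mouse 8 lay under it. The log2 fold change was 0.68 (95% interval 0.28 to 1.09, adjusted p = 0.0320) in Case and 0.56 (95% interval 0.16 to 0.97, adjusted p = 0.0392) in Dapa. The Case call was lost without Case mouse 1, 2, 4 or 6 or Ctrl mouse 1, 3 or 5 (adjusted p = 0.0505 to 0.0891) and in the replicate block (0.0825), and the Dapa call without Dapa mouse 10, 11 or 12 or Ctrl mouse 1, 3 or 5 (0.0635 to 0.0913), with all groups in one fit (0.0583) and without the mouse of highest Slc12a1 in both groups, a setting chosen after the values were seen (0.0567). The direction held in all of them.

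Arrdc4, which is not a member but shares the glucose response of Txnip, was less abundant and more even among mice. It read 3.76, 3.88, 3.35, 4.53 and 3.35 FPKM in Ctrl mice 1 to 5, 5.16 to 6.33 (median 5.59) in the 6 Case mice and 4.95 to 6.44 (median 5.82) in the 6 Dapa mice, and every db/db mouse lay above every Ctrl mouse. Its log2 fold change was 0.50 (95% interval 0.29 to 0.71, adjusted p = 0.00645) in Case and 0.50 (95% interval 0.27 to 0.73, adjusted p = 0.00503) in Dapa. Between Dapa and Case, Txnip differed by -0.12 (95% interval -0.59 to 0.34, adjusted p = 0.846), and the value ran from -0.37 to -0.01 over the alternatives. The Txnip levels of treated and untreated db/db mice thus did not differ beyond their spread.

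Of the 8 genes of gluconeogenesis, none passed between Case and Ctrl (1 had an unadjusted p under 0.05, as 28.7% of all genes did, and 1 passed in DESeq2 and in voom with sample weights, Pcx in each case), and Pcx alone passed between Dapa and Ctrl. Over all genes 13.0% and 29.1% passed. Pck1, the cytosolic carboxykinase that commits oxaloacetate to glucose synthesis, read 899, 1065, 883, 1145 and 964 FPKM in Ctrl mice 1 to 5, 435 to 1226 (median 964) in the 6 Case mice and 563 to 1336 (median 975) in the 6 Dapa mice. The Ctrl range lay inside that of both db/db groups. Case mouse 3 (435) and Dapa mouse 12 (563) were the lowest of their groups. In the fit, the log2 fold change was -0.21 (95% interval -0.71 to 0.30, adjusted p = 0.608) in Case against Ctrl and 0.09 (95% interval -0.48 to 0.65, adjusted p = 0.912) in Dapa against Case. Both intervals include changes of more than 0.5 on the log2 scale. The Case value was -0.07 without Case mouse 3 and -0.31 without Case mouse 4.

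G6pc, the catalytic subunit of glucose-6-phosphatase that releases glucose, read 418, 273, 269.6, 264 and 306 FPKM in Ctrl mice 1 to 5, 137 to 447 (median 319) in the 6 Case mice and 237 to 321 (median 275) in the 6 Dapa mice. Ctrl mouse 1 stood apart at the top of its group and Case mouse 3 at the bottom of Case, and the groups overlapped. Fbp1, the fructose bisphosphatase of liver and kidney, read 507, 489, 449.9, 398 and 444 FPKM in Ctrl mice 1 to 5, 269 to 538 (median 442) in the 6 Case mice and 237 to 464 (median 385) in the 6 Dapa mice. Its 3 lowest db/db mice were Dapa mouse 12, Case mouse 3 and Dapa mouse 10, and it did not pass between Case and Ctrl (adjusted p = 0.521) or between Dapa and Ctrl, where its log2 fold change was -0.42 (95% interval -0.77 to -0.07, adjusted p = 0.0688). It did pass between Dapa and Ctrl in DESeq2 (0.0453), edgeR's exact test (0.0489), voom with sample weights (0.0196) and with the term for 7 libraries (0.0211), and without Dapa mouse 8 or 9 (0.0443 and 0.0483). Slc37a4, which carries glucose phosphate to G6pc in the endoplasmic reticulum, lay at 83.5 to 175 FPKM, and Pck2, the mitochondrial carboxykinase, at 3.45 to 6.00. Fbp2, the muscle fructose bisphosphatase, lay at 5.56 to 15.4 and G6pc3, the widely expressed phosphatase, at 4.02 to 7.18. Slc37a4, Pck2, Fbp2 and G6pc3 did not pass in any comparison.

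Pcx, the mitochondrial carboxylase that turns pyruvate into oxaloacetate, read 161, 167, 167, 156 and 173 FPKM in Ctrl mice 1 to 5, 90.6 to 177 (median 131) in the 6 Case mice and 80.2 to 171 (median 119) in the 6 Dapa mice. Case mouse 5 and Dapa mouse 7 lay within or above the Ctrl range and the other 10 db/db mice under it. The log2 fold change was -0.55 (95% interval -0.90 to -0.19, adjusted p = 0.0247) in Dapa against Ctrl and -0.41 (95% interval -0.73 to -0.09, adjusted p = 0.0886) in Case against Ctrl. The Dapa call was lost without Dapa mouse 10 or 11 or Ctrl mouse 1, 2, 3 or 5 (adjusted p = 0.0508 to 0.0559), and the Case difference passed in DESeq2 (0.0427), in voom with sample weights (0.0455) and without Case mouse 5 (0.0208). Pcx was the member of this route with the largest change between Case and Ctrl.

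**Figure D3:**
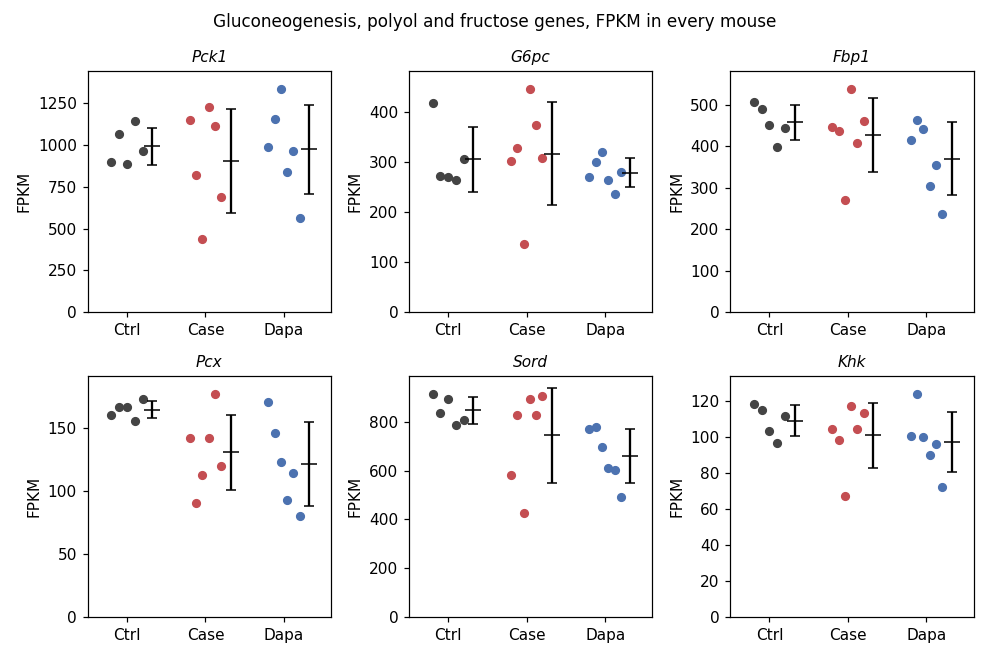
FPKM (y axis, from 0) of 4 gluconeogenesis genes, of Sord (sorbitol dehydrogenase) and of Khk (ketohexokinase), 1 point a mouse, with the mean ± SD beside each group (5 Ctrl, 6 Case, 6 Dapa). Pck1 and G6pc overlap between the groups, Sord lies under the Ctrl range in all 6 Dapa mice, and Case mouse 3, the third point of Case, is the lowest of its group in Pck1, G6pc, Fbp1, Sord and Khk.

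Of the 3 fructose and polyol genes, 1 passed, Sord, in Dapa against Ctrl, beside 29.1% of all genes. Sord, which turns sorbitol into fructose, read 913, 837, 893, 785 and 806 FPKM in Ctrl mice 1 to 5, 428 to 903 (median 828) in the 6 Case mice and 493 to 776 (median 654) in the 6 Dapa mice. All Dapa mice lay under the lowest Ctrl mouse, as did Case mice 1 and 3. On the log2 scale Sord changed by -0.47 (95% interval -0.74 to -0.20, adjusted p = 0.0145) in Dapa against Ctrl, and in Case against Ctrl the value was -0.26 (95% interval -0.68 to 0.16, adjusted p = 0.406), which was -0.14 without Case mouse 3 and -0.40 in the replicate block. It shares 31.3% of its stretches with Gm6652, a gene not in the table, and the Dapa call was lost when all 3 groups were fitted together (0.0602). Khk, which phosphorylates fructose, lay at 67.1 to 124 FPKM, with Case mouse 3 lowest, and did not pass.

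Akr1b3, aldose reductase, the enzyme that makes sorbitol from glucose, was present at low level. It read 1.95, 2.23, 2.07, 1.44 and 1.60 FPKM in Ctrl mice 1 to 5, 0.616 to 2.05 (median 1.06) in the 6 Case mice and 0.835 to 11.7 (median 1.54) in the 6 Dapa mice. Case mice 1, 2, 4, 5 and 6 lay under the Ctrl range and Case mouse 3 within it. Among Dapa mice, 7, 8 and 9 lay under the Ctrl range, 10 within it, and 11 (11.7) and 12 (6.99) far above every other mouse. Its log2 fold change was -0.77 (95% interval -1.31 to -0.22, adjusted p = 0.0619) in Case against Ctrl, 1.71 (95% interval 0.39 to 3.03, adjusted p = 0.286) in Dapa against Case and 0.94 (95% interval -0.41 to 2.28, adjusted p = 0.279) in Dapa against Ctrl. Without Dapa mouse 11 the values against Case and against Ctrl were 1.01 and 0.23, and with the term for 7 libraries 0.44 and 0.54. The difference of Case against Ctrl passed without Case mouse 3 (0.0152) and in DESeq2 (0.0214), edgeR's exact test (0.0277), voom with sample weights (0.0175), the replicate block (0.0389) and without the mouse of highest Slc12a1 in both groups (0.0108). Akr1b3 passed in no setting of either Dapa comparison. Dapa mice 11 and 12 also had the highest levels of the collecting duct water channel Aqp2, at 158 and 195 FPKM beside 26.3 to 44.3 in Ctrl, and together with Dapa mouse 10 the highest of the collecting duct gene Fxyd4, at 8.36, 15.5 and 8.94 beside 2.78 to 4.75. The part of this in the Akr1b3 values was not tested.

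In the pentose phosphate route, Taldo1 and Tkt, which exchange carbon units with glycolysis, changed in opposite directions in Dapa against Ctrl. Taldo1, transaldolase, read 69.9, 76.6, 74.8, 66.8 and 70.6 FPKM in Ctrl mice 1 to 5, 57.3 to 65.1 (median 63.7) in the 6 Case mice and 58.3 to 71.0 (median 63.3) in the 6 Dapa mice. The Case mice all lay under the Ctrl mice, and Dapa mice 8 and 9 within the Ctrl range. Its log2 fold change was -0.28 (95% interval -0.46 to -0.10, adjusted p = 0.0400) in Case and -0.27 (95% interval -0.45 to -0.08, adjusted p = 0.0319) in Dapa. The Case call was lost without Case mouse 1, 2, 3 or 4 or Ctrl mouse 1, 2, 3 or 5 (adjusted p = 0.0525 to 0.103) and in 7 other settings (0.0540 to 0.111), among them edgeR's exact test (0.0582), upper quartile scaling (0.0659) and the term for 7 libraries (0.0564). The Dapa call was lost without Dapa mouse 7, 10, 11 or 12 or Ctrl mouse 1, 2, 3 or 5 (0.0506 to 0.101), under upper quartile scaling (0.0591), without a filter (0.0604) and in limma on log2(FPKM + 1) and log2(FPKM + 0.1) (0.0978 and 0.0974).

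Tkt, transketolase, read 21.0, 22.4, 22.3, 22.8 and 19.6 FPKM in Ctrl mice 1 to 5, 22.9 to 38.0 (median 28.8) in the 6 Case mice and 26.8 to 32.4 (median 28.1) in the 6 Dapa mice. All 12 db/db mice lay above the Ctrl mice, some of them narrowly. It rose in Dapa by 0.32 (95% interval 0.14 to 0.50, adjusted p = 0.0144) on the log2 scale, a call lost with all groups in one fit (0.0569). In Case the value was 0.33 (95% interval 0.05 to 0.62, adjusted p = 0.108), which passed without Case mouse 3 (0.0435), in limma on log2(FPKM + 1) and log2(FPKM + 0.1) (0.0481 and 0.0464) and in voom with sample weights (0.0495). G6pdx, which opens the route and makes NADPH, lay at 5.01 to 9.12 FPKM and Pgd, the next dehydrogenase, at 9.91 to 14.8, and neither passed.

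At the entry into hexosamine synthesis, Gfpt1, the amidotransferase that diverts fructose phosphate into hexosamines, read 5.23, 5.54, 5.58, 4.87 and 6.07 FPKM in Ctrl mice 1 to 5, 4.33 to 6.57 (median 5.57) in the 6 Case mice and 4.37 to 5.67 (median 4.83) in the 6 Dapa mice. Dapa mice 7, 9 and 10 lay under the Ctrl range, and the Case mice reached both under it (4.33) and above it (6.57). Its log2 fold change was -0.26 (95% interval -0.44 to -0.08, adjusted p = 0.0316) in Dapa against Ctrl, a call lost without Dapa mouse 7, 9, 10 or 11 or Ctrl mouse 1, 2, 3 or 5 (adjusted p = 0.0525 to 0.0807), under upper quartile scaling (0.0550), without a filter (0.0537) and in limma on log2(FPKM + 1) and log2(FPKM + 0.1) (0.224 and 0.222). Gfpt1 did not pass in Case (adjusted p = 0.708). Gfpt2, its second form, read 0.138, 0.0524, 0.195, 0.193 and 0.153 FPKM in Ctrl mice 1 to 5, 0.0655 to 0.633 (median 0.310) in the 6 Case mice and 0.192 to 0.850 (median 0.238) in the 6 Dapa mice. Case mice 1 and 5 and Dapa mice 8 and 10 lay within the Ctrl range. The fitted log2 fold change was 1.06 (95% interval -0.02 to 2.15, adjusted p = 0.182) in Case and 1.22 (95% interval 0.22 to 2.22, adjusted p = 0.0640) in Dapa, and the Dapa value was 0.82 without Dapa mouse 11. It passed in neither, at 5 to 67 counts a mouse, but in Dapa it passed in DESeq2 (0.0333), edgeR's exact test (0.0408), with the term for 7 libraries (0.0265) and without Dapa mouse 8 (0.0480).

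Whether dapagliflozin changed these genes within the db/db kidney is the question of Dapa against Case. No member passed, and none did under the other tools and settings tried, DESeq2 and edgeR's exact test included. At an unadjusted p of 0.05, Pkm and Akr1b3 passed, 2 of 38 members beside 12.9% of all genes. Pkm read 92.0 to 195 FPKM in Dapa and 84.1 to 131 in Case mice, and its log2 fold change was 0.39 (95% interval 0.03 to 0.76, adjusted p = 0.359) with an unadjusted p of 0.0363 in the same fit. This value was 0.24 with the term for 7 libraries, 0.27 without Dapa mouse 12 and 0.49 without Dapa mouse 7. Akr1b3 had an unadjusted p of 0.0149 and its high values were those of Dapa mice 11 and 12. The other 36 members had log2 fold changes from -0.26 (Pck2) to 0.36 (Aldoc), with adjusted p from 0.409 to 0.998. The 95% intervals of the members reached a median of 0.33 to either side of the estimate, before any adjustment over genes.

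Of 81 further genes of these routes, 78 were tested, and 13 passed between Case and Ctrl (6 higher, 7 lower), 34 between Dapa and Ctrl (14 higher, 20 lower) and none between Dapa and Case. These are 16.7% and 43.6% of those tested, beside 13.0% and 29.1% of all genes. Of the 4 kinases that switch off pyruvate dehydrogenase, Pdk1 rose and Pdk3 fell in both db/db groups against Ctrl. Pdk1 read 3.82, 4.32, 3.55, 5.03 and 4.09 FPKM in Ctrl mice 1 to 5, 8.26 to 12.4 (median 10.4) in the 6 Case mice and 8.28 to 11.0 (median 10.2) in the 6 Dapa mice, with a log2 fold change of 1.23 (95% interval 0.95 to 1.51, adjusted p = 0.000221) in Case. Pdk3 read 16.6, 14.4, 17.4, 12.4 and 15.3 FPKM in Ctrl mice 1 to 5, 5.27 to 9.23 (median 7.15) in the 6 Case mice and 6.32 to 9.51 (median 6.96) in the 6 Dapa mice, with -1.15 (95% interval -1.48 to -0.82, adjusted p = 0.000813) in Case. For both, no db/db mouse overlapped a Ctrl mouse, and the calls held in every fit tried. Their log2 fold changes in Dapa against Ctrl were 1.15 and -1.15. Pdk2, the most abundant of the kinases at 52.9 to 90.9 FPKM over all mice, and Pdk4, at 6.46 to 58.1, passed in no comparison (adjusted p = 0.513 and 0.208 in Case, 0.419 and 0.109 in Dapa against Ctrl). The phosphatases that switch it on passed in Dapa alone, Pdp1 higher at 1.05 (adjusted p = 0.0115) and Pdp2 lower at -0.64 (adjusted p = 0.00591), and whether this differs from Case was not shown, since neither passed between Dapa and Case.

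In the hexosamine route, 4 of 9 further genes fell in Case relative to Ctrl and none rose, and in Dapa 5 fell and 1 rose, beside 6.91% of all genes lower in Case and 14.9% in Dapa. Uap1, which makes the activated sugar UDP-N-acetylglucosamine, read 10.6, 11.1, 12.8, 10.5 and 16.2 FPKM in Ctrl mice 1 to 5, 6.42 to 10.5 (median 8.43) in the 6 Case mice and 6.04 to 9.50 (median 7.60) in the 6 Dapa mice, with a log2 fold change of -0.60 (95% interval -0.91 to -0.30, adjusted p = 0.0169) in Case. Gnpda1, which returns glucosamine phosphate to glycolysis, read 37.7, 37.4, 37.0, 38.8 and 39.8 FPKM in Ctrl mice 1 to 5, 22.9 to 35.7 (median 30.3) in the 6 Case mice and 15.2 to 30.7 (median 21.5) in the 6 Dapa mice, with -0.45 (95% interval -0.65 to -0.24, adjusted p = 0.00980). Pgm3, a mutase of the route, read 4.86, 5.14, 4.99, 4.41 and 4.60 FPKM in Ctrl mice 1 to 5, 2.83 to 4.33 (median 3.29) in the 6 Case mice and 2.99 to 4.88 (median 3.80) in the 6 Dapa mice, with -0.57 (95% interval -0.84 to -0.30, adjusted p = 0.0123). In all 3, every Case mouse lay under every Ctrl mouse. The Case call of Gnpda1 was lost with all groups in one fit. Amdhd2, a deacetylase that recycles its product, had a log2 fold change of -0.57 (95% interval -0.86 to -0.29, adjusted p = 0.0142) in Case and -0.85 in Dapa. The Case calls of Pgm3 and Amdhd2 were lost in the replicate block, and the Dapa call of Pgm3 in limma on both log2(FPKM) scales.

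In glycolysis, fructose and glycerol metabolism, Pgam2, the muscle phosphoglycerate mutase, was higher at 0.79 in Case and 0.78 in Dapa on the log2 scale (adjusted p = 0.00526 and 0.000375), opposite to Pgam1. Its Case call was lost in the replicate block. Glycerol kinase (Gk) was lower at -0.54 and -0.79 (adjusted p = 0.0447 and 0.00762). The Case call of Gk was lost without Case mouse 2, 3, 4, 5 or 6 or Ctrl mouse 1, 2, 3 or 5 (0.0529 to 0.110) and in 6 other settings, while the Dapa call held in every fit tried. The mitochondrial glycerol phosphate dehydrogenase Gpd2 was lower at -0.67 and -0.58 (adjusted p = 0.00782 and 0.0166). Glyctk, which phosphorylates glycerate from fructose, was lower in Dapa at -0.80 (adjusted p = 0.000650). Of 12 glycogen genes, 2 passed in Case, beside 13.0% of all genes. The phosphorylase Pygb and the mutase Pgm1 were higher in Case at 0.49 and 0.56 (adjusted p = 0.0404 and 0.0276). The Case call of Pygb was lost without Case mouse 1, 2 or 3 or Ctrl mouse 1, 2, 3 or 5 (0.0706 to 0.107) and in the replicate block, and that of Pgm1 without Case mouse 2 or Ctrl mouse 3 or 5 (0.0564 to 0.0808) and in 3 other settings. In Dapa 4 passed, beside 29.1% of all genes. Pygl, Pygb and Pgm1 were higher at 0.62, 0.47 and 0.54 (adjusted p = 0.0180, 0.0133 and 0.0194). Pgm2, at 21.4 to 39.1 FPKM beside 2.05 to 5.01 for Pgm1, was lower at -0.52 (adjusted p = 0.00921). The Dapa calls of Pygb and Pgm2 held in every fit tried. That of Pygl was lost with all groups in one fit and that of Pgm1 without Ctrl mouse 5 (0.0520). Among the regulators of gluconeogenesis, Hnf4a, a factor that maintains the proximal tubule program, was lower in Dapa at -0.57 (adjusted p = 0.00883), and Crtc2, a coactivator of cAMP-responsive transcription, was higher at 0.44 (adjusted p = 0.00603). None of the 7 further pentose phosphate genes passed in Case, and 4 did in Dapa, beside 13.0% and 29.1% of all genes. H6pd, the enzyme of the endoplasmic reticulum, Rpia and Rpe were lower at -0.59, -0.54 and -0.36 (adjusted p = 0.0138, 0.0128 and 0.0380). Prps2 was higher at 0.25 (adjusted p = 0.0437). The Rpe call was lost without any 1 of 8 mice (0.0649 to 0.118) and in 4 other settings. That of Prps2 was lost without any 1 of 6 mice (0.0618 to 0.106) and in 3 other settings. Akr1a1, an aldo-keto reductase of the proximal tubule, was lower in Dapa at -0.35 (adjusted p = 0.0284), a call lost without Dapa mouse 8, 10, 11 or 12 or Ctrl mouse 1, 2, 3 or 5 (0.0516 to 0.0886) and in 3 other settings.

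**Figure D4:**
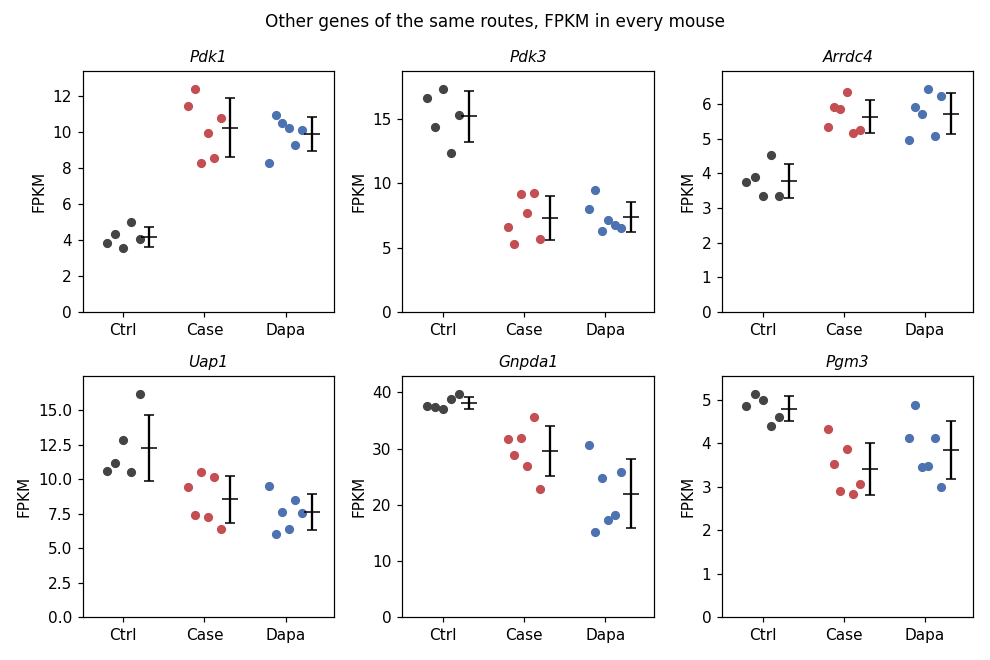
FPKM (y axis, from 0) of 6 further genes of the same routes, 1 point a mouse, with the mean ± SD beside each group (5 Ctrl, 6 Case, 6 Dapa). Pdk1 and Arrdc4 lie higher and Pdk3 lower in all 12 db/db mice than in any Ctrl mouse, and Uap1, Gnpda1 and Pgm3 lie lower in all 6 Case mice.

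Glycolytic members were set beside Slc12a1, the salt transporter that marks the thick ascending limb of the loop. Slc12a1 read 64.9, 124, 109, 248 and 136 FPKM in Ctrl mice 1 to 5, 85.7 to 344 (median 194) in the 6 Case mice and 132 to 349.8 (median 234) in the 6 Dapa mice. Ctrl mouse 4, Case mouse 3 and Dapa mouse 12 had the highest Slc12a1 of their groups, and the same mice had the highest Hk1, Pfkp, Pkm and Aldoc of their groups. All 3 mice were also the lowest of their groups in Fbp1, Sord and Khk. In Pck1, Case mouse 3 and Dapa mouse 12 were the lowest of their groups and Ctrl mouse 4 the highest of Ctrl. Slc12a1 itself did not pass between Case and Ctrl (adjusted p = 0.435). The part of this in the values of the members was not tested.

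**Figure D5:**
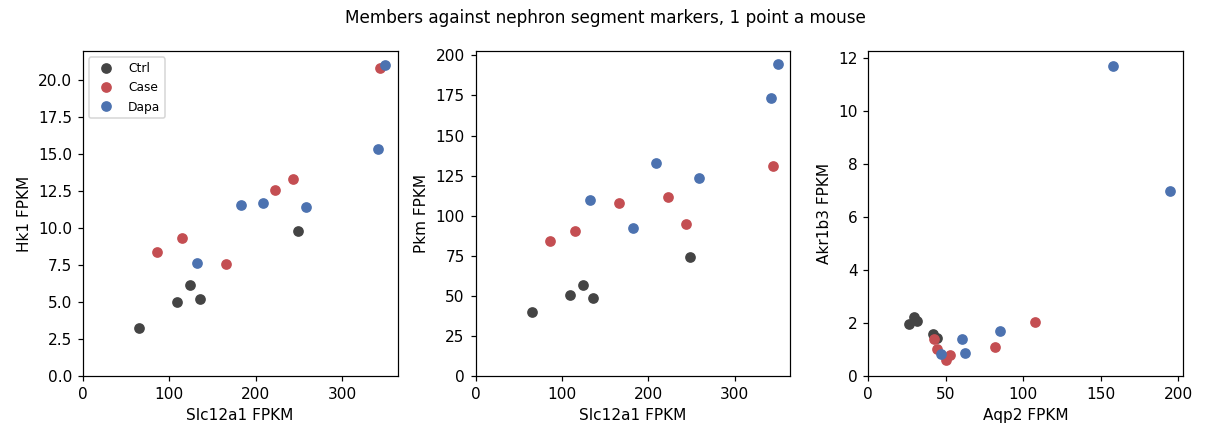
Left and middle, Hk1 and Pkm FPKM (y axis) against Slc12a1 FPKM (x axis), right, Akr1b3 FPKM against Aqp2 FPKM, 1 point a mouse, coloured by group. Hk1 and Pkm are highest where Slc12a1 is highest within each group, and Akr1b3 is high only in the 2 Dapa mice with the highest Aqp2.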

How the data were processed

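Whole-kidney poly(A) RNA was sequenced from 5 Ctrl, 6 Case and 6 Dapa mice, 1 library each, with stranded libraries. The authors aligned reads to mm10 with HISAT2. For each gene and mouse they deposited whole-number counts of reads. The deposited FPKM equalled the count divided by library total and gene length within 0.00223%, without a TMM factor. How reads shared by several genes were treated, and the strand setting of the counting, are not given in the sources used here. Of 22561 genes, 3 that ran over 2 lines (Sirt1, Tgfb1 and Bmp4) were left out. Their FPKM did not match their counts in 7 libraries (3 Ctrl, 1 Case and 3 Dapa), which were tried as a batch term. Totals were 13039535 to 17779635 counts, with 17.9% to 27.6% on mitochondrial genes. No libraries of a group were duplicates (lowest chi-square per gene 15.0).

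Groups followed the sample labels. The quasi-likelihood test of edgeR 4.0.16 in R 4.3.3 was run on counts with TMM scaling after filterByExpr, with p adjusted by Benjamini-Hochberg over all genes tested and each comparison on its own 2 groups, and the genes described were read from those fits. A gene was called at an adjusted p under 0.05. Intervals are fold change plus or minus the t quantile times the standard error of that fit. Simulated counts checked the script: of 200 genes changed, it called 75.0% of those at a log2 size of 1 and 97.0% at 2 in the Case and Ctrl design of 14417 genes. As alternatives, edgeR's exact test, DESeq2 1.42.0, limma 3.58.1 on log2(FPKM + 1) and log2(FPKM + 0.1), voom with sample weights, other scalings and filters, all groups in one fit, the batch term, a replicate block and leaving out each mouse were tried. Shared 50-base stretches and overlapping exons were taken from GENCODE M21, promoters from RefSeq GRCm38.p6. Python 3.11.15 with numpy 2.4.6, pandas 2.3.3 and matplotlib 3.10.9 was used.

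The 40 genes, their routes and the lists of further genes and markers were chosen with earlier results of these data known. Each Ctrl value and the lowest, median and highest value of either db/db group are given for members called in any comparison, for the member with the largest change of a route in Case against Ctrl and for members with an unadjusted p under 0.05 in Dapa against Case. Further genes were named when called, at most 4 a route by size, some with these values and others by fold change alone. The values of Pck1, G6pc, Fbp1 and Gapdh, and the genes Pdk2, Pdk4, Slc12a1, Aqp2, Fxyd4, Pdgfra and Dcn, fall outside these rules and were picked once their values had been seen.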

Additional observations from a re-analysis of the deposited data

Results flagged for a closer look

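In 7 of the 120 groups of values (40 genes in 3 groups), 1 mouse stood farther from the others than Dixon's 95% limit allows. Chance gives about 1 in 20 such groups. Case mouse 3 gave 4 of them. It was the highest Case mouse in Hk2 (0.536 FPKM, the others 0.0164 to 0.155), in Hk3 (0.713, the others 0 to 0.0831) and in Pfkp (7.96, the others 2.56 to 4.21), and the lowest in Khk (67.1, the others 98.7 to 117). Over the whole Case group, the summed macrophage and myeloid markers ran from 28.6 to 203 FPKM (median 44.3), values that are not assigned to a mouse here. Ctrl mouse 3 was the highest Ctrl mouse in Hk2 (0.330, the others 0.0449 to 0.0690), and Ctrl mouse 1 in G6pc (418, the others 264 to 306). Dapa mouse 12 was the highest Dapa mouse in Pck2 (5.57, the others 3.45 to 4.23).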

How the results depend on the processing

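Between Case and Ctrl, where 6 of these genes were called, DESeq2 called 10, the term for 7 libraries 3 and the replicate block 3 (Akr1b3, Ldhd and Pkm), and leaving out 1 mouse gave 2 to 8. The block was fitted on numbers 1 to 5, which both groups share, and mice with the same number were not otherwise paired (correlations of their deviations -0.057 to -0.014). The remaining settings gave 5 to 9, among them 8 without the mouse of highest Slc12a1 in each group, which was chosen after the values were seen and gave 13 between Dapa and Ctrl. Between Dapa and Ctrl leaving out 1 mouse gave 9 to 17 beside 14, and the other settings 11 to 17. Between Dapa and Case the count was 0 in all 25 alternatives. No called gene changed direction in any alternative, and the calls of Ldhd and Pkm against Ctrl held in all of them. The log2 fold change of Pck1 between Dapa and Case, 0.09, turned negative without Case mouse 3 (-0.0601) or Dapa mouse 9 (-0.0445), and reached 0.206 without Dapa mouse 12. No paired analysis of Dapa was possible because its numbers, 7 to 12, occur in no other group. Depth limits Hk2, Hk3 and Gfpt2. The cause of changes between settings was not tested.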
